A study of Mus musculus with 8 samples.

Results

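The actin cytoskeleton was described in bone marrow-derived macrophages (BMDMs) through 47 genes: the actins, the Arp2/3 complex, its WASP and WAVE activators, Cdc42 with the formin Diaph1, monomer-binding and severing proteins, filament cappers, bundlers and crosslinkers, adhesion site linkers, membrane linkers, and myosins with tropomyosin. They were a list of names, taken for what the proteins do and matched by symbol, and all 47 were among the 23761 genes of the expression table. BMDMs are macrophages grown in culture from marrow precursors, here from femur and tibia in medium conditioned by L929 fibroblasts. They came from LysM mice (LysM Cre/Cre), the controls, and from K2KO mice (LysM Cre/Cre with KLF2 flox/flox), at 3 months of age, and the labels mark all libraries as vehicle. Both genotypes therefore carry Cre in the lysozyme M gene, which drives it in myeloid cells. Each genotype had 4 libraries, called here LysM or K2KO with the digit of the column (0 to 3). The columns tell the genotype, not the mouse.

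Macrophages crawl, engulf and spread by building filaments of actin under the membrane. The Arp2/3 complex starts new filaments as branches on old ones when WASP or WAVE proteins switch it on, formins such as Diaph1 start unbranched ones, profilin and thymosins hold the pool of free monomers, cofilin, coronins and gelsolin take filaments apart, capping proteins stop their growing ends, and crosslinkers, linkers and myosins tie the network together and pull on it. Transcription of several actin genes is driven by serum response factor (SRF), whose cofactors sense the free monomer pool.

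Expression was given as FPKM, fragments scaled by transcript length and by the mapped fragments of the library, so levels of different genes are per length. Summed over all genes it was 497253 to 551608 FPKM in LysM and 448235 to 501965 FPKM in K2KO. How many fragments a value rests on is unknown. The steps between low values gave a relative depth of 0.971 to 1.23 of LysM0 in the other LysM libraries and at 0.891 to 1.33 in the K2KO libraries. The macrophage identity in the labels was checked against markers, and all 8 macrophage genes passed a mean of 1 FPKM, with a summed level of 4042 ± 87.9 FPKM in LysM and 3764 ± 68 FPKM in K2KO (SD, n = 4 each). Cd68 was the most abundant of them at a mean of 1807 FPKM, and the defining genes Adgre1 and Csf1r were at 433 ± 62.3 and 524 ± 15.5 FPKM in LysM.

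Klf2, the deleted gene, encodes a zinc finger transcription factor and lies on chromosome 8 of GRCm38 (72319033 to 72321656, plus strand). Its level was 44.1, 52.9, 64.7 and 72.8 FPKM in the LysM libraries and 45.5, 41.6, 59.2 and 59.3 FPKM in the libraries labelled K2KO. The groups overlapped, and the log2 fold change of -0.18 (SE 0.17) did not pass the test (limma adjusted p = 0.460, exact two-sided permutation p = 0.429, where 0.0286 is the smallest that 4 against 4 libraries can give). The level of Klf2 over its whole locus thus did not separate the groups, and every direction below is that of the libraries labelled K2KO against LysM.

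Of the 47 genes, 46 had a mean of at least 1 FPKM and were tested by limma on log2(FPKM + 0.1) with all 10920 such genes. A gene was called when its adjusted p was under 0.05 and its log2 fold change was over 0.26 in either direction. By this rule 8 actin genes were called (17.4%), beside 18.4% of all tested genes, so the actin genes as a group were called about as often as the rest. Wipf1, Capza1 and Actn1 were higher in K2KO. Tmsb4x, Actb, Pfn1, Coro1a and Brk1 were lower in K2KO. Over all tested genes, 9.84% were called higher and 8.61% lower. The median log2 fold change was -0.05 over the 46 actin genes and 0.01 over all tested genes. A negative value was found for 28 of the 46, and for 5260 of all 10920 tested genes. The LysM and K2KO libraries did not overlap for 15 of the 46 (32.6%), against 23.1% of all tested genes. Vil1, a bundler of the intestinal brush border, was not tested. It was listed at 0 in all LysM libraries and at 0.012 to 0.034 FPKM in K2KO.

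**Figure D1:**
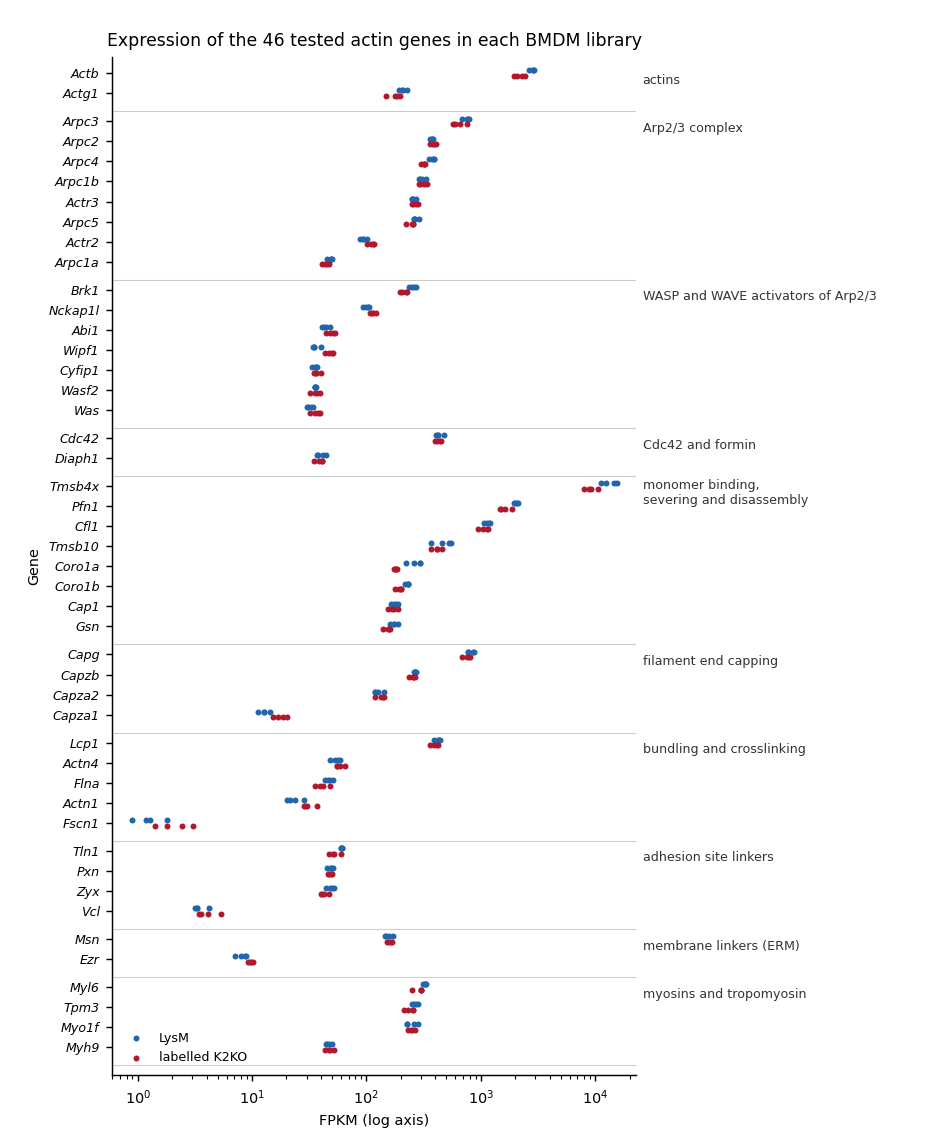
FPKM of the 46 tested actin genes (log axis), by role, with 1 point for each of the 4 LysM (blue) and 4 K2KO (red) libraries. Levels spanned Tmsb4x at a mean of 11310 FPKM to Fscn1 at 1.74 FPKM, and the 2 groups of points lay close together for most genes.

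Levels per length differed widely. Tmsb4x, thymosin beta 4, which keeps actin monomers out of filaments, was the highest of the tested actin genes at a mean of 11310 FPKM over the 8 libraries. It was followed by Actb (2505 FPKM), the monomer-binding profilin Pfn1 (1821 FPKM), the severing protein cofilin, Cfl1 (1109 FPKM), the capping protein Capg (790 FPKM) and the Arp2/3 subunit Arpc3 (699 FPKM). The lowest tested members were the bundler Fscn1, the adhesion linker Vcl (3.81 FPKM) and the membrane linker Ezr (8.94 FPKM). The actin genes held 5.16% ± 0.222 of the summed FPKM in LysM and 4.54% ± 0.12 in K2KO. Tmsb4x alone held 2.52% ± 0.284 and 1.94% ± 0.151. Without it the actin genes held 2.64% ± 0.0987 and 2.60% ± 0.107, a difference smaller than the SD of either group.

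**Figure D2:**
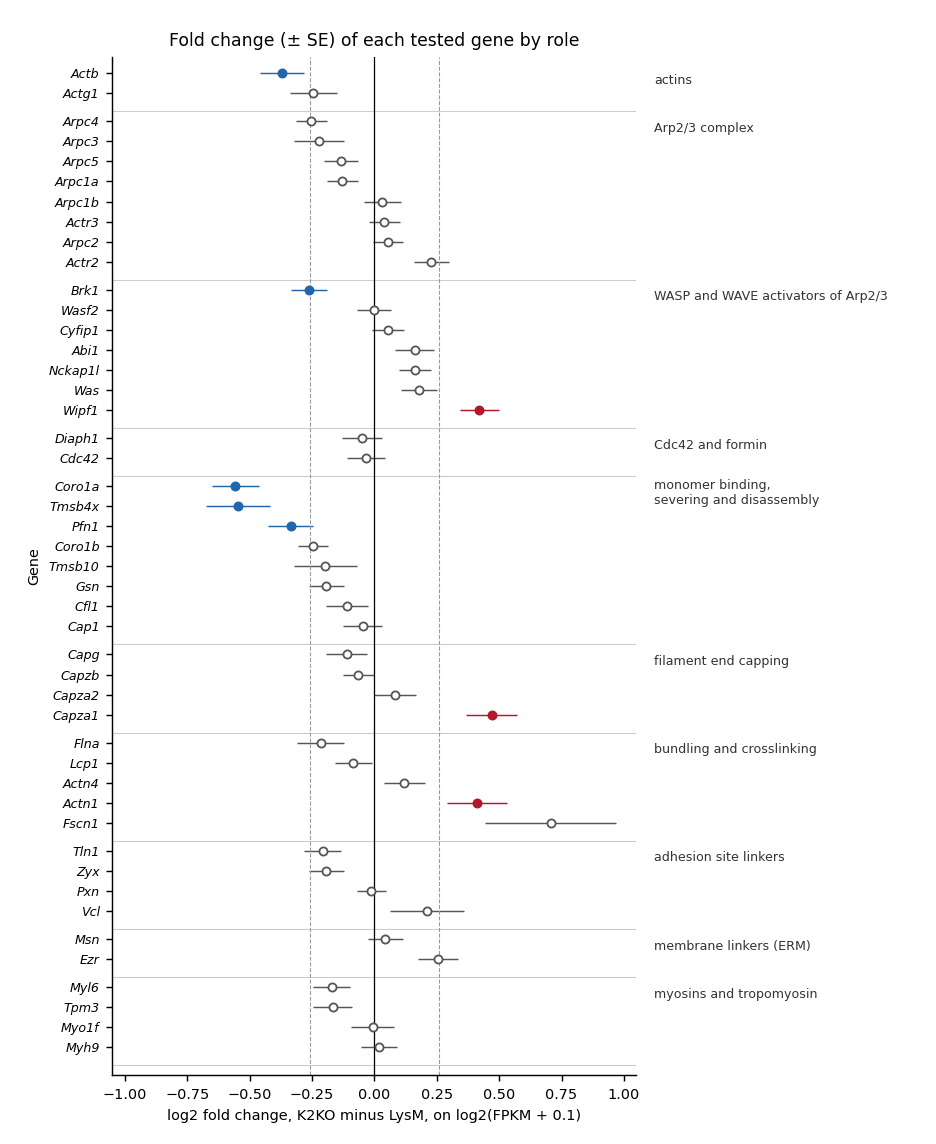
Log2 fold change of K2KO against LysM with its SE for each tested actin gene, by role, on the log2(FPKM + 0.1) scale. Filled points are the 8 called genes (red higher, blue lower), open points the 38 not called, and dashed lines mark the threshold of 0.26 in either direction. With quantile normalization the value of Actb turned to 0.0061.

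The 2 cytoplasmic actins are told apart mainly by silent differences in their coding sequence. The coding sequences of Actb and Actg1 in GENCODE M21 are 88.65% identical over 1128 bases, and the longest identical run is 62 bases. The first 60 coding bases are shown because they hold 9 of the differences (capitals), including those that change the start of the proteins.
Actb: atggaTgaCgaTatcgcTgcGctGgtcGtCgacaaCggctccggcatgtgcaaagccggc
Actg1: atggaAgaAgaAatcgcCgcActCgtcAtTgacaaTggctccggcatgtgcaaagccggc

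Actb, beta-actin, lies on chromosome 5 (142903115 to 142906754, minus strand). It was at 2625, 2949, 2859 and 2848 FPKM in LysM and at 1962, 2279, 2064 and 2449 FPKM in K2KO. Every K2KO library was below every LysM library. The means were 2820 ± 138 and 2189 ± 218 FPKM (SD, n = 4). The log2 fold change was -0.37 (SE 0.09, limma adjusted p = 0.0239), but 0.0061 with quantile normalization. That method gives every library the same distribution of values and sets them by rank. Genes among the highest can differ little there, so it cannot settle whether Actb was lower. Actb is often used as a loading control, so its own level is given here in each library. Actg1, gamma-actin, was at 195 to 228 FPKM in LysM and at 148 to 195 FPKM in K2KO, with a log2 fold change of -0.25 (limma adjusted p = 0.0887). It was not called. Actb held 93.1% ± 0.409 of the FPKM of both actins in LysM and 92.5% ± 0.694 in K2KO. Of the listed near-identical copies of Actg1, the processed pseudogene Gm12715 was at a mean of 95.6 FPKM and Gm8399 at 88.7 FPKM, which are 49.4% and 45.9% of the level of Actg1. Reads of Actg1 may have been split among them, and with the 4 copies added by length its log2 fold change was -0.05 (limma adjusted p = 0.739).

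The Arp2/3 complex had 8 tested subunits. None was called by limma in the comparison of all 8 libraries as deposited, beside 18.4% of all tested genes. An unadjusted limma p under 0.05 was reached by 2 of them, and by 4126 of all 10920 tested genes. Actr2, the Arp2 subunit, was at 87.3 to 101 FPKM in LysM and 101 to 117 FPKM in K2KO, with an overlap of the groups and a log2 fold change of 0.23. Arpc4, a core subunit, was at 352 to 391 FPKM in LysM and 298 to 325 FPKM in K2KO, with no overlap and a log2 fold change of -0.25. Both passed the adjusted p (limma, 0.0470 and 0.0261) but not the fold threshold. Actr2 was called with quantile normalization, with upper-quartile scaling and without K2KO3, and with the GC and length correction its value was 0.0025. Arpc4 was called without LysM0 and Arpc3 without K2KO3. The other 6 subunits ran from -0.22 for Arpc3 to 0.06 for Arpc2. Arpc3 was at 684 to 793 FPKM in LysM and 572 to 760 FPKM in K2KO, and its adjusted p was 0.134 by limma. Arpc1a and Arpc1b are alternative forms of 1 subunit, and Arpc1b held 86.3% ± 1.17 of their FPKM in LysM and 87.5% ± 1.31 in K2KO.

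Among the activators of Arp2/3, 1 of 7 was called higher and 1 lower, beside 9.84% and 8.61% of all tested genes. Wipf1, the WASP-interacting protein that holds and stabilises WASP (chromosome 2, 73429610 to 73529734, minus strand), was at 40.4, 34.8, 34.1 and 34.5 FPKM in LysM and at 50.4, 51.5, 46.7 and 43.8 FPKM in K2KO. Every K2KO library was above every LysM library, and LysM0 was the highest of its group. The log2 fold change was 0.42 (SE 0.08, limma adjusted p = 0.0129). Was, the haematopoietic WASP itself, had a log2 fold change of 0.18 and was not called (limma adjusted p = 0.105). With the GC and length correction it was at 0.28, and it was called higher when that correction was combined with a block on the digit of the column (replicate block) or with K2KO3 left out. Brk1, the smallest subunit of the WAVE complex (chromosome 6, 113604772 to 113616951, plus strand), was at 234, 259, 269 and 252 FPKM in LysM and at 195, 204, 221 and 225 FPKM in K2KO. The groups did not overlap, and the log2 fold change was -0.26 (SE 0.07, limma adjusted p = 0.0340), just past the fold threshold. Brk1 was not called with quantile normalization (-0.06), upper-quartile scaling (-0.22) or the GC and length correction (-0.18). The other WAVE subunits were at 0.16 for Nckap1l, 0.16 for Abi1, 0.06 for Cyfip1 and -0.0012 for Wasf2, none of them called. With a correction for GC content and length, described below, they were at 0.06, -0.05, -0.11 and -0.04. Nckap1l was called higher with quantile normalization. Wasf2, the WAVE2 subunit that binds Arp2/3, was at 35.2 to 36.5 FPKM in LysM and 31.9 to 39.2 FPKM in K2KO. The values for Cdc42 (-0.03), the GTPase that opens WASP, and Diaph1 (-0.05) were not called.

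Of the 8 genes of monomer binding, severing and disassembly, 3 were called lower (8.61% of all tested genes were) and none higher, and the groups did not overlap in 5 (23.1% of all tested genes). The log2 fold change was negative for all 8, but quantile normalization turned Cfl1 (0.1563) and Cap1 (0.11) positive, and the GC and length correction did so for Tmsb10 (0.06). Their median was -0.22, and -0.10 with that correction. Tmsb4x (X chromosome, 167207093 to 167209315, minus strand) was at 11217, 12465, 15459 and 14610 FPKM in LysM and at 8864, 8059, 9209 and 10599 FPKM in K2KO. The means were 13438 ± 1944 and 9183 ± 1060 FPKM, with the highest K2KO library still below the lowest LysM library. The log2 fold change was -0.54 (SE 0.13, limma adjusted p = 0.0230), and -0.14 with quantile normalization (adjusted p = 0.437). Tmsb4x lay at the top of all tested genes, whose largest mean was 11300 FPKM. Quantile normalization sets values by rank, so genes among the highest, such as Tmsb4x and Pfn1, can differ little there. It therefore cannot settle whether they were lower. Pfn1 (chromosome 11, 70651850 to 70654644, minus strand), which feeds monomers to growing filaments, was at 1976, 2116, 1950 and 2073 FPKM in LysM. In K2KO it was at 1478, 1613, 1488 and 1876 FPKM. The groups did not overlap, although K2KO3 stood nearer to LysM than the other K2KO libraries did. The log2 fold change was -0.34 (SE 0.09, limma adjusted p = 0.0323). It was -0.0171 with quantile normalization (adjusted p = 0.888) and -0.14 with the GC and length correction (adjusted p = 0.182). Pfn1 was called in 2 of the 8 fits that left out a library. At a mean of at least 0.1 FPKM, Tmsb4x (limma adjusted p = 0.0596) and Pfn1 (0.0569) were not called. With no filter on low values, Tmsb4x (limma adjusted p = 0.883), Pfn1 (0.237) and Actb (0.33) were not called.

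Coro1a, coronin 1A, an actin-binding protein of leukocytes (chromosome 7, 126699773 to 126707787, minus strand), was at 221, 260, 292 and 293 FPKM in LysM and at 180, 175, 186 and 179 FPKM in K2KO. The K2KO libraries were close to each other (180 ± 4.44 FPKM) and all below the LysM libraries (267 ± 34.3 FPKM), of which LysM0 was the lowest. The log2 fold change was -0.56 (SE 0.09, limma adjusted p = 0.0109). In the comparison as deposited this was the lowest value, with the smallest adjusted p, among the tested actin genes. With the GC and length correction Tmsb4x took both places (-0.51, limma adjusted p = 0.0255), and Coro1a was at -0.38 (0.0403). The related Coro1b was at 218 to 233 FPKM in LysM and 178 to 199 FPKM in K2KO. Its log2 fold change of -0.25 passed the adjusted p (limma, 0.0260) but not the fold threshold, and it was called without K2KO3. Coro1a held 53.7% ± 3.15 of the FPKM of both coronins in LysM and 48.3% ± 1.59 in K2KO. The remaining values were -0.20 for the thymosin Tmsb10, -0.19 for gelsolin (Gsn), -0.11 for Cfl1 and -0.05 for Cap1, which helps recycle monomers. None of these 4 was called, but Tmsb10 was called lower without LysM0.

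**Figure D3:**
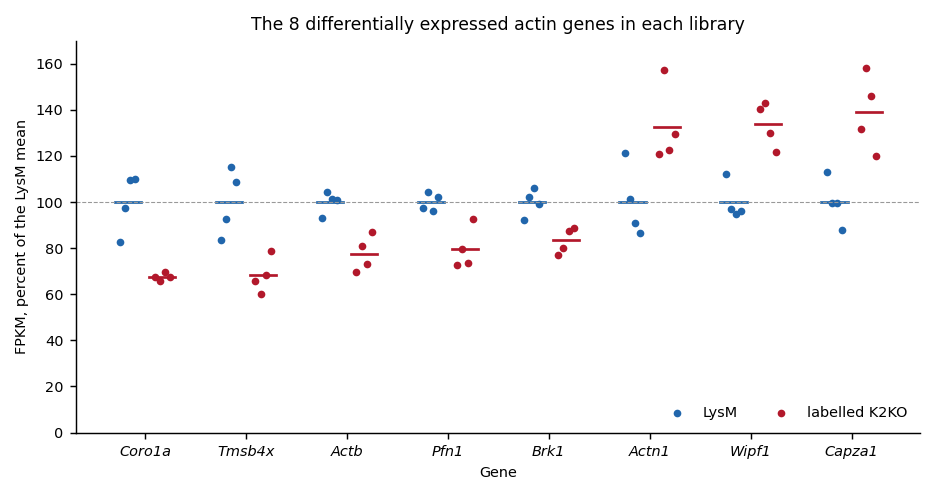
FPKM of the 8 called actin genes in each library as a percent of the gene's LysM mean. Points are the 4 LysM (blue) and 4 K2KO (red) libraries in the order 0 to 3, and bars are group means. The groups did not overlap for Coro1a, Tmsb4x, Actb, Pfn1, Brk1, Wipf1 and Capza1, and overlapped for Actn1. The order for Actb is that of the FPKM as deposited, and its log2 fold change with quantile normalization was 0.0061.

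Of 4 capping genes 1 was called higher, as was 1 of 5 tested bundlers and crosslinkers, beside 9.84% of all tested genes. Capza1, an alpha subunit of the protein that caps growing ends (chromosome 3, 104822779 to 104864505, minus strand), was at 14.4, 12.7, 12.7 and 11.2 FPKM in LysM and at 16.8, 20.2, 18.6 and 15.3 FPKM in K2KO. All K2KO libraries were above all LysM libraries, and the log2 fold change was 0.47 (SE 0.10, limma adjusted p = 0.0182). The other alpha subunit, Capza2, was the more abundant and was not called (log2 fold change 0.08, limma adjusted p = 0.496). Capza1 held 9.23% ± 1.3 of the FPKM of both alpha subunits in LysM and 11.7% ± 0.687 in K2KO. The pseudogene Gm3608, at 17.1% of the level of Capza1, matches it over 2859 bases at 99.5% identity. With the listed copies of Capza1 added by length the log2 fold change was 0.60 (limma adjusted p = 0.0166). The beta subunit Capzb (-0.06) and Capg (-0.11) were not called, and with quantile normalization the value of Capg was 0.1546.

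Actn1, alpha-actinin 1, which crosslinks filaments at adhesions (chromosome 12, 80167547 to 80260371, minus strand), was at 28.5, 23.9, 21.3 and 20.3 FPKM in LysM and at 28.4, 36.9, 28.8 and 30.4 FPKM in K2KO. LysM0 lay within the K2KO range, so the groups overlapped, and the other LysM libraries were below all K2KO libraries. The log2 fold change was 0.41 (SE 0.12, limma adjusted p = 0.0419), the largest adjusted p among the called actin genes. With the same value, Actn1 was not called at a mean of at least 0.1 FPKM (limma adjusted p = 0.0534). Nor was it called without the intensity trend (0.0555) or with the replicate block (0.0509). Actn4, its close relative, was not called (0.12, limma adjusted p = 0.312). Fscn1, fascin, which bundles filaments in protrusions, was at 0.889, 1.81, 1.18 and 1.28 FPKM in LysM and at 2.45, 1.81, 1.43 and 3.06 FPKM in K2KO. It had the largest positive log2 fold change of the tested actin genes, 0.71, but also the largest SE, 0.26, and it was not called (limma adjusted p = 0.0824). The crosslinker Flna (-0.21) and the leukocyte bundler Lcp1 (-0.08) were not called.

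The parts of the network that hold it to membranes and pull on it held no called gene in the comparison of all 8 libraries as deposited. They had 4 adhesion site linkers, 2 membrane linkers and 4 genes of myosins and tropomyosin, and 18.4% of all tested genes were called. Of the adhesion site linkers, talin (Tln1) was at 59.6 to 61.8 FPKM in LysM and 46.9 to 59.5 FPKM in K2KO, with no overlap and a log2 fold change of -0.21 (limma adjusted p = 0.0743). It was called without K2KO1. Zyx was at -0.19, Vcl at 0.21 and Pxn at -0.01. Pxn, the adhesion scaffold paxillin, was at 45.3 to 50.5 FPKM in LysM and 46.1 to 50.2 FPKM in K2KO. Of the membrane linkers, Ezr was at 7.03 to 8.85 FPKM in LysM and 9.20 to 10.3 FPKM in K2KO, with a log2 fold change of 0.26 (limma adjusted p = 0.0514), and Msn was at 0.04. Ezr was called with upper-quartile scaling and without LysM0. Non-muscle myosin heavy chain Myh9 (0.02), its light chain Myl6 (-0.17), the leukocyte myosin Myo1f (-0.01) and tropomyosin Tpm3 (-0.17) were not called. Myo1f was at 228 to 280 FPKM in LysM and 229 to 266 FPKM in K2KO. Near-identical copies added, by length, 21.6% to Myl6 (chiefly Gm10080, Gm5526 and Gm8894), 20.6% to Tpm3 (Tpm3-rs7), 16.9% to Actr3 (Gm15899 and Gm8822), 16% to Tmsb10 (Gm9844), 3.97% to Arpc1b (Gm5637) and 1.09% to Cfl1 (Gm6180), and with them no further gene was called. Some loci overlap a gene on the other strand, and the strand setting of the quantification is not given in the sources used here. Vcl shares 2090 exonic bases with Ap3m1, which was at 5.66 FPKM, Capza1 shares 166 with St7l at 5.50 FPKM, and Coro1a shares 26 with Bola2 at 58.0 FPKM. Cyfip1 shares 1316 with Nipa2 at 15.7 FPKM, and Tln1 shares 360 with Creb3 at 31.2 FPKM. On the same strand, Coro1b shares 432 with Ptprcap at 0.926 FPKM, and Arpc4 shares 283 with Ttll3 at 2.27 FPKM.

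The windows from 250 bases before to 50 after the start in RefSeq (GRCm38.p6), given for 41 of the 47 genes, were searched on both strands for the CArG box bound by SRF, which has CC and GG around 6 letters that are each A or T. A match was found for 5 of the 41 genes (12.2%) and for 1.81% of all 27025 genes with a window. The matches are printed as read on the strand of the gene, with the box in capitals, to show how the genes share it. They lie at chr11:120348551-120348610 for Actg1, chr6:113377863-113377897 for Arpc4, chr10:128493025-128493084 for Myl6, chr14:20929148-20929205 for Vcl and chr1:74409286-74409345 for Vil1.
Actg1: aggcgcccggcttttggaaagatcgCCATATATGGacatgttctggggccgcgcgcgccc
Arpc4: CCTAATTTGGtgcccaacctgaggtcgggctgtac
Myl6: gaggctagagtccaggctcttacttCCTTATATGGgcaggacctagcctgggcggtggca
Vcl: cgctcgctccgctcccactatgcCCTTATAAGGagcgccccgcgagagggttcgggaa
Vil1: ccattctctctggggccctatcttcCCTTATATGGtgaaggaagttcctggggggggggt

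None of the 4 tested genes with a CArG box in the window was called, beside 18.4% of all tested genes. Their log2 fold changes were -0.25 for Actg1, -0.25 for Arpc4, -0.17 for Myl6 and 0.21 for Vcl. Actb, Coro1b, Cyfip1, Diaph1, Nckap1l and Pxn had no entry. The letters CACCC, or GGGTG on the other strand, which are the core of Klf binding sites, were in the windows of 29 of the 41 genes (70.7%) and of 59.8% of all genes. Srf was at 14.4, 15.8, 15.7 and 15.9 FPKM in LysM and 12.1, 12.9, 13.8 and 14.3 FPKM in K2KO, with a log2 fold change of -0.21 (limma adjusted p = 0.0507). In a list of 13 tested SRF pathway genes, among them Srf, Actb, Actg1 and Vcl, 3 were called (23.1%, beside 18.4% of all tested genes), 1 higher and 2 lower. With the GC and length correction 1 of the 13 was called, beside 8.38% of all tested genes. Acta2, the smooth muscle actin and a target of SRF, was at 0.780 ± 0.333 FPKM in LysM and 1.07 ± 0.328 FPKM in K2KO and was not tested.

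Other genes of the actin pathway, outside the 47, were called at a similar rate. Of 99 tested genes, 20 were called (20.2%, beside 18.4% of all tested genes), 10 higher and 10 lower, with a median log2 fold change of 0.05. The groups did not overlap for 37 of the 99 (37.4%, beside 23.1%). Among assembly and turnover genes 9 of 32 were called, among crosslinking and adhesion genes 4 of 24, and among motors and tropomyosins 2 of 12. The genes with the largest rises and falls came from several of these lists.

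Parvg, gamma-parvin, a leukocyte adhesion adaptor, was at 1.90, 2.51, 1.52 and 2.26 FPKM in LysM and 3.73, 3.98, 3.52 and 3.41 FPKM in K2KO, with a log2 fold change of 0.83 (SE 0.14, limma adjusted p = 0.0115). Rdx, radixin, the third membrane linker beside Ezr and Msn, was at 9.15, 8.67, 9.31 and 7.80 FPKM in LysM and 13.1, 15.0, 12.9 and 10.7 FPKM in K2KO (log2 fold change 0.55, SE 0.10, limma adjusted p = 0.0129). Myo5a, a cargo-carrying myosin, rose by 0.55 (SE 0.12, adjusted p = 0.0196) and Arhgap15, which switches off Rac, by 0.42 (SE 0.07, adjusted p = 0.0121). All of these had K2KO libraries above all LysM libraries.

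On the lower side, Marcksl1, which binds actin at the membrane, was at 76.9, 79.8, 102 and 103 FPKM in LysM and 63.0, 45.7, 44.2 and 51.6 FPKM in K2KO, with a log2 fold change of -0.82 (SE 0.14, limma adjusted p = 0.0109). Gmfg, which removes Arp2/3 branches, was at 47.8, 67.2, 85.0 and 86.6 FPKM in LysM and 40.9, 33.9, 44.7 and 40.7 FPKM in K2KO (-0.81, SE 0.18, limma adjusted p = 0.0201), and LysM0 was the lowest LysM library here as it was for Coro1a. The GTPase Rhoc fell by 0.49 on the log2 scale (SE 0.10, limma adjusted p = 0.0143), and with the GC and length correction its value was -0.26 (adjusted p = 0.160). Of 12 tested tubulin and microtubule genes, kept for comparison, 3 were called (25%, beside 18.4% of all tested genes), all lower (8.61% of all tested genes). After correction for GC content and length 2 of the 12 were called, beside 8.38% of all tested genes. The largest fall among them was that of Stmn1, which takes microtubules apart, by 0.49 (SE 0.10, limma adjusted p = 0.0182).

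GC content and transcript length moved with the difference between the groups. Over all tested genes the log2 fold change correlated with GC content (Spearman correlation -0.43, 10899 genes) and with length (0.38), as a description across genes that share the same 8 libraries. Over the 46 actin genes the same correlations were -0.29 and 0.52. Of the genes in the lowest eighth by GC content, 26.4% were called higher and 1.17% lower, and in the highest eighth 1.54% and 22.6%. The 3 called higher actin genes had a median length of 3734 bases, and the 5 called lower 1095 bases. Over all tested genes the median was 3783.5 bases for those called higher and 1435 bases for those called lower.

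The smooth trend with GC content and length was then removed from every library and the fit repeated. It left 4 actin genes called, Wipf1 higher (0.33, limma adjusted p = 0.0277) and Actb (-0.33, adjusted p = 0.0319), Tmsb4x (-0.51, adjusted p = 0.0255) and Coro1a (-0.38, adjusted p = 0.0403) lower, with 915 of all tested genes called in place of 2014. Pfn1 moved from -0.34 to -0.14 (adjusted p = 0.182), Capza1 to 0.31 (adjusted p = 0.0575), Actn1 to 0.38 (adjusted p = 0.0646), and Brk1 to -0.18, under the fold threshold. Srf moved from -0.21 to -0.0023 and Klf2 to 0.04. Of the pathway genes outside the 47, 9 were called. Among those named, Arhgap15 went from 0.42 to 0.24, under the fold threshold, and Rhoc from -0.49 to -0.26, and both lost the call. Rdx went to 0.38 and Myo5a to 0.35, and both stayed called.

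**Figure D4:**
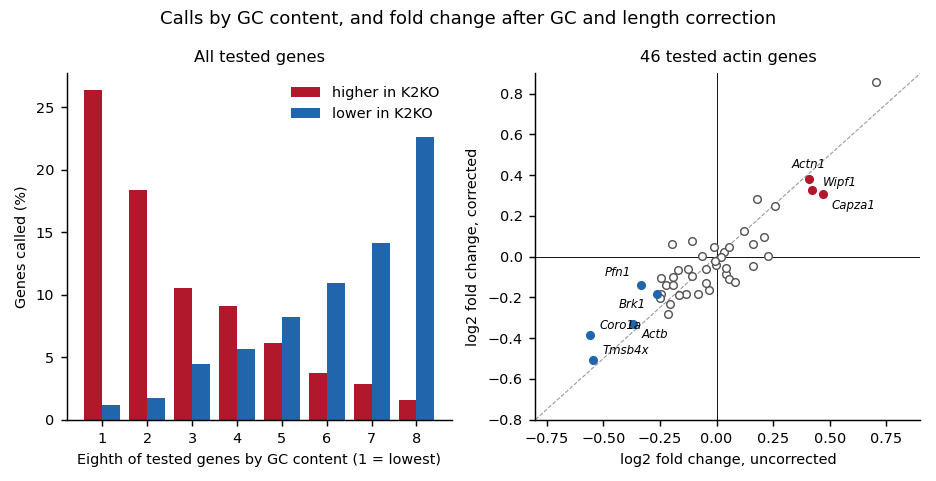
Left, percent of all tested genes called higher (red) or lower (blue) in K2KO, by eighths of GC content from the lowest (1) to the highest (8). Right, log2 fold change of the 46 tested actin genes before (x axis) and after (y axis) removal of each library's trend in GC content and length, where the dashed line marks no change and filled points are the 8 genes called before it. Calls fell from 8 to 4.

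Several calls also changed when a library was left out. With each library left out in turn, Coro1a and Wipf1 were called in 8 of 8 fits, Capza1 in 5 and Actn1 in 1. Actb, Tmsb4x, Pfn1 and Brk1 were each called in 2 of 8, without LysM0 and without K2KO3. They lost the call without any of the other 6, where the adjusted p of limma reached 0.0718, 0.0728, 0.0930 and 0.0901. Their log2 fold changes ran from -0.43 to -0.32 for Actb and from -0.63 to -0.47 for Tmsb4x. Those of Pfn1 and Brk1 ran from -0.41 to -0.30 and from -0.30 to -0.23. In the same 8 fits 543 to 2863 of all tested genes were called. Capza1 lost it without LysM1, LysM3 or K2KO2 (adjusted p up to 0.0558), and Actn1 was called only in the fit without LysM0 (adjusted p up to 0.113 in the others). Of the other genes named, Parvg, Rdx, Arhgap15, Marcksl1 and Rhoc were called in 8 of 8, Stmn1 in 7, all but the fit without LysM3 (adjusted p = 0.0538), Myo5a in 5 and Gmfg in 4. Myo5a was not called without LysM1, LysM3 or K2KO2 (adjusted p up to 0.0582), and Gmfg without LysM1, LysM3, K2KO0 or K2KO1 (up to 0.0584).

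With quantile normalization 5 actin genes were called higher and 1 lower, in place of 3 and 5. Of all tested genes 14% were called, 54.4% of these higher, in place of 18.4% and 53.3%. Tmsb4x, Pfn1 and Brk1 (-0.06) were not called, while Coro1a (-0.39, limma adjusted p = 0.0173), Wipf1 (0.50, adjusted p = 0.0166), Capza1 (0.47, adjusted p = 0.0239) and Actn1 (0.45, adjusted p = 0.0427) were called in the same direction as before. Rhoc was at -0.33 and was not called (adjusted p = 0.0686). The median log2 fold change of the 46 actin genes was then 0.10, against 0.002 over all tested genes. Upper-quartile scaling gave 5 higher and 4 lower, and moved the share of higher calls among all called genes from 53.3% to 64.1%.

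Markers of other cells that BMDM cultures can hold were read in the same libraries. None of 11 fibroblast genes reached a mean of 1 FPKM (summed level 1.27 ± 0.612 FPKM in LysM and 2.58 ± 1.47 FPKM in K2KO, Dcn the most abundant at 0.481 FPKM). Of 11 neutrophil genes 10 did, with a summed level of 261 ± 58.5 and 264 ± 61.3 FPKM and S100a9 the most abundant at 129 FPKM, while the defining gene Ly6g was at 0.357 FPKM or less in every library. Camp alone among them was called, and was lower. Dendritic genes summed to 7.43 ± 0.599 and 8.32 ± 1.64 FPKM, with Itgax the most abundant at 4.91 FPKM and both defining genes, Flt3 and Zbtb46, under 1 FPKM. Lymphoid genes summed to 3.65 ± 1.52 and 5.21 ± 0.911 FPKM (Cd79b 2.47 FPKM), erythroid and megakaryocyte genes to 3.96 ± 1.35 and 7.66 ± 2.27 FPKM (Ppbp 3.17 FPKM, called higher), and mast cell genes to 1.28 ± 0.854 and 2.47 ± 1.19 FPKM (Prss34 1.48 FPKM). Of the macrophage genes Mertk was called higher and Lyz2, whose locus carries the Cre in both groups, was called lower, at 18.6 ± 2.88 FPKM in LysM and 13.2 ± 1.73 FPKM in K2KO. After correction for GC content and length Mertk (limma adjusted p = 0.0906), Lyz2 (0.0519) and Ppbp (0.0701) were not called, and Camp was. The log2 fold change went from 0.36 to 0.26 for Mertk and from -1.14 to -0.97 for Camp. Those of Lyz2 (-0.49 to -0.46) and Ppbp (1.07 to 1.00) stayed about as large. Their part in the results on actin genes was not tested. In bulk RNA, fewer cells of a type and less RNA per cell cannot be told apart.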

How the data were processed

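BMDM RNA of 4 LysM and 4 K2KO libraries was sequenced after a TruSeq Stranded Total RNA preparation. The authors computed FPKM with Cufflinks on mm10 and deposited 1 table with a column for each library and no pooled values. The methods name TopHat2 as aligner and the submitters' processing notes name STAR, Cuffdiff and Cufflinks, with no versions. The labels and the methods also name different RNA kits. FPKM hold no counts, so depth is unknown and no interval or test based on counts could be given. Columns were mapped to a genotype by name. Nothing says which column is which mouse, and p-values measure the spread between libraries.

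The 47 actin genes and all gene lists were chosen with earlier results of these data known. The count of 1 of the 4 pathway lists is not reported here on its own. Of 23761 listed genes, 23645 matched GENCODE M21, which gave names, positions, length and GC content. log2(FPKM + 0.1) of genes with a mean of at least 1 FPKM was fitted with limma 3.58.1 (lmFit, eBayes with an intensity trend, R 4.3.3) with no covariate, and p-values were adjusted by Benjamini-Hochberg over all tested genes. Thresholds (adjusted p of 0.05, log2 fold change of 0.26) were those of the methods. Klf2 was also compared by exact permutation. The procedure was tested on simulated data.

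Named are Klf2, every called actin gene, the 6 with the highest mean, the 3 with the smallest change, those not tested, the 4 largest rises and falls without overlap in the other lists, Acta2, Srf and copies over 1%. Others are named after their values were seen. Near-identical copies share at least 95% identity over 200 bases by blastn. Alternatives were other pseudocounts, filters, scalings, no trend, the GC and length correction (loess, span 0.3), a replicate block and each library left out. Adding copies, and combining the correction with each library left out, were chosen after seeing the data.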

Additional observations from a re-analysis of the deposited data

Results flagged for a closer look

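In 5 of 115 groups of 4 libraries, 1 library lay far from the other 3 by Dixon's test of the gap over the range at the 95% level. Chance gives about 1 in 20, here 5.75. Arpc4 was at 298 FPKM in K2KO0, with the other K2KO libraries at 321 to 325 FPKM. Myl6 was at 252 FPKM in K2KO0, with the others at 297 to 303 FPKM. Wipf1 was at 40.4 FPKM in LysM0, with the other LysM libraries at 34.1 to 34.8 FPKM, and this library lay on the side of K2KO. Vcl was at 4.23 FPKM in LysM0, with the others at 3.17 to 3.33 FPKM. Srf was at 14.4 FPKM in LysM0, with the others at 15.7 to 15.9 FPKM. Of these genes, only Wipf1 was called, and its call was kept without LysM0.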

How the results depend on the processing

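Counts of called genes moved most. Of 8 called actin genes (3 higher, 5 lower), a mean of at least 0.1 FPKM left 5 (3 lower), beside 12.7% of all tested genes. No filter left 2 (1 higher, 1 lower), with 7 of the pathway genes and 483 of all genes (2.03%). Quantile normalization gave 5 higher and 1 lower, a median of 0.1044 and 1534 of all genes. Upper-quartile scaling gave 5 higher and 4 lower, with 2083 of all genes. The GC and length correction left 4 (1 higher, 3 lower), 9 pathway genes and 915 genes. Pseudocounts of 1 and 0.01 left 8, beside 16.8% and 18.6% of all tested genes, and no intensity trend 7, beside 16.9%.

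The numbers that end the column names gave no sign of pairs: the correlations of same-numbered libraries were -0.07, 0.02, 0.073 and -0.057. Such values cannot exclude that libraries were prepared in pairs. With this number as a replicate block 7 actin genes and 2057 genes were called. The block with the correction gave 3 (1 lower), 5 pathway genes and 706 genes, and Klf2 at 0.0436. Coro1a (limma adjusted p = 0.0659) and Actb (0.06) were not called there, with log2 fold changes of -0.38 and -0.33 as with the correction alone. Marcksl1, Myo5a and Stmn1, which were called with the correction alone, were not called there either.

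Leaving out each library, alone or, as an addition, with the correction, gave 0 to 11 called actin genes (0 to 4 higher, 0 to 7 lower), 1 to 29 pathway genes and 155 to 2863 genes. Alone it gave 2 to 11. With the correction no actin gene was called in the fits other than those without LysM0 (7) and K2KO3 (5). Of all tested genes, 1.42% to 2.48% were called in the fits with no called actin gene. The share was 13.6% without LysM0 and 12% without K2KO3. An unadjusted p under 0.05 in limma was reached by 17 to 22 actin genes, and its share over all tested genes is not given for these fits. The cause of the lost calls was not tested.

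Some values changed sign. With quantile normalization the called Actb went from -0.37 to 0.0061, with Arpc3 from -0.22 to 0.0208, Cfl1 at 0.1563, Capg at 0.1546, Wasf2 at 0.0681, Myo1f at 0.1693 and Pxn at 0.0671. With upper-quartile scaling Wasf2 was at 0.0429, Myo1f at 0.037 and Pxn at 0.0317. With the correction, alone or with the block, Klf2 was at 0.0436, Capg at 0.0762 and Pxn at 0.0446. With a library left out alone, Klf2 (-0.3108 to -0.0701), Capg (-0.1443 to -0.0578) and Srf (-0.2495 to -0.1706) kept their sign. Once fits that combined this with the correction were counted too, Klf2 reached 0.1335, Capg 0.124 and Srf 0.0516, and Wasf2 ran from -0.0702 to 0.053, Myo1f from -0.0604 to 0.0514 and Pxn from -0.0442 to 0.0663. FPKM without counts limit what can be said of low genes such as Fscn1, Vcl and Vil1.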
